A study of Homo sapiens with 20 samples.

Results

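The genes described here are 10 regulators and products of bone-forming cells, RUNX2, SP7, DLX5, ALPL, SPP1, SPARC, BMP2, BMP4, TNFSF11 and TNFRSF11B, taken by name from the 43366 genes of the count table. They were chosen by name for their known roles in bone, with no threshold on a measured value. All 10 were listed in the table, and 8 of them passed the filter on low counts in every comparison, while SP7 and TNFSF11 did not. Osteoblasts arise from mesenchymal progenitors under the transcription factor RUNX2, with DLX5 acting alongside it and SP7 (osterix) acting downstream, and BMP ligands such as BMP2 and BMP4 promote this step. Committed cells then make alkaline phosphatase (ALPL), which releases phosphate for mineral, and matrix proteins such as osteonectin (SPARC) and osteopontin (SPP1). Osteoblasts also steer osteoclasts through RANKL (TNFSF11), which drives osteoclast formation, and osteoprotegerin (TNFRSF11B), a soluble decoy that captures RANKL.

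The cells were U2OS, an osteosarcoma line, and poly(A) RNA was sequenced from 5 wild-type (WT) clones and 5 ZBTB48 knockout (KO) clones, each untreated or given 250 U/ml interferon gamma (IFNγ) for 24 h, which made 20 libraries in 4 groups of 5. ZBTB48 is a zinc finger protein that binds telomeric repeats and some promoters, and the series asked what its loss changes in the IFNγ response. Each clone is a population grown from 1 cell of the same line, so the groups differ in clone as well as in label. The libraries held 46652288 to 72952859 counts. ZBTB48 itself was at 8.05 to 11.7 CPM (counts scaled to a library total of 1e6) in the WT libraries and at 1.27 to 5.17 CPM in 8 of the libraries labelled KO, but both libraries of KO clone 3 were at 11.3 and 16.0 CPM, so that its mRNA level went against the label and "labelled KO" is used below. Untreated and treated libraries of the same clone deviated together from their group means (r across 15116 genes of 0.70 to 0.89) in 8 clones, and did not in KO clones 4 and 5 (r = 0.00 and 0.07). Untreated KO clone 4 went with treated KO clone 5 (r = 0.76), and untreated clone 5 with treated clone 4 (r = 0.837). The labels were kept, so every within-clone value of the clones labelled KO rests on 2 doubtful pairs, and their fold changes are also given without KO clones 4 and 5. All levels are bulk averages, in which fewer cells making a transcript and less transcript per cell cannot be told apart.

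The start regions of these genes give the sequence context for the values that follow. RefSeq (GRCh38.p14) gave 12 windows of 250 bases before to 50 bases after a transcription start for RUNX2, ALPL, SPP1, SPARC, BMP4 and TNFSF11. The windows were searched on both strands for the GAS motif of IFNγ-responsive genes (TTCNNNGAA, in 7.66% of all 35116 windows), the core of the interferon-stimulated response element (GAAANNGAA, in 8.11%), the RUNX motif (ACCACA, in 13.1%) and the telomeric repeat to which ZBTB48 binds (TTAGGG, in 9.05%). The first listed start is printed for RUNX2, the factor whose motif was searched, and for the 4 others with a window whose mRNA moved with IFNγ in the tests further down. Capitals mark motif matches, and in these sequences every match is ACCACA.
RUNX2, chr6:45328080-45328379, plus strand: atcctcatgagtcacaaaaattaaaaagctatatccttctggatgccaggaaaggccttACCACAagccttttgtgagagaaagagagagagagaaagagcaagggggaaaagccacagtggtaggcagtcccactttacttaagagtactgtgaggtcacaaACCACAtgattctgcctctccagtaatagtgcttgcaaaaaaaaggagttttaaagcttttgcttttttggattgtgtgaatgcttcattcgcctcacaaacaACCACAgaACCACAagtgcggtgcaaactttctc
ALPL, chr1:21508734-21509033, plus strand: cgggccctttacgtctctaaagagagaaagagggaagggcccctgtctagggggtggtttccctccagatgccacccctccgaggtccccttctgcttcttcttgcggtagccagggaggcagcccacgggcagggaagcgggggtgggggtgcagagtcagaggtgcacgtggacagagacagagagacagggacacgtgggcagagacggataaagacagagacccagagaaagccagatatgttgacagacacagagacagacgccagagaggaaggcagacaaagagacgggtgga
SPP1, chr4:87975464-87975763, plus strand: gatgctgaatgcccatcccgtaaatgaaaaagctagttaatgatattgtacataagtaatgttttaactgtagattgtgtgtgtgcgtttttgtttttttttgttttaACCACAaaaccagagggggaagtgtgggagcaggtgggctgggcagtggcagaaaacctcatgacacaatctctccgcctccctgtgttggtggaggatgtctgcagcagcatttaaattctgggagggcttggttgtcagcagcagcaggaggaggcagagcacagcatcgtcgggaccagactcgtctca
SPARC, chr5:151686866-151687165, minus strand: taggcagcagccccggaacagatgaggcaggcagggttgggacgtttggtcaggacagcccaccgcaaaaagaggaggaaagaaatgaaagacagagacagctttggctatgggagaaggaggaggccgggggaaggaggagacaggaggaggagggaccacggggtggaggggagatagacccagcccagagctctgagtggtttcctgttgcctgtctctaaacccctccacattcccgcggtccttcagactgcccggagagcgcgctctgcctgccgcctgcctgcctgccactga
BMP4, chr14:53955001-53955300, minus strand: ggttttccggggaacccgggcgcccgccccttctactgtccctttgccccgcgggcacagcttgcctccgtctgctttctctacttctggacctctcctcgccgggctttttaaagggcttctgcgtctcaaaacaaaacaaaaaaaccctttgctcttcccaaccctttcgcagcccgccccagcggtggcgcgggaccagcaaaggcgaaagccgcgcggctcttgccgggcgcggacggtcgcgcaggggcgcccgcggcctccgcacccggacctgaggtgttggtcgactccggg
The RUNX2 window held 4 RUNX matches, beginning at -191, -87, 17 and 25 from the start (1 is the first transcribed base), and the SPP1 window held 1, beginning at -142. The third listed window of ALPL held 1 TTAGGG (first base at -78), the second listed window of BMP4 held 1 RUNX match (-41), and the first window of TNFSF11 held 1 GAS match (-197). None of the 12 windows held the response element core, and no window of ALPL, SPARC, SPP1 or BMP4 held a GAS match. A match describes the letters only, and its absence concerns only these letters in this window.

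Per length of exon, SPARC was by far the most abundant of the 10, at 675 ± 193 CPM per kb (mean ± SD, n = 5) in untreated WT clones and 629 ± 191 in untreated clones labelled KO. In untreated WT clones TNFRSF11B (42.1 ± 33.7), SPP1 (22.2 ± 16.4), BMP4 (18.4 ± 4.61) and RUNX2 (9.91 ± 4.59) followed, and the ranges of neighbours in this order overlapped from TNFRSF11B to RUNX2. BMP2 (2.50 ± 1.32) and ALPL (2.18 ± 0.932) came next and overlapped each other, and DLX5 was lowest of the tested genes at 0.115 ± 0.0662 CPM per kb. The order of the clones labelled KO placed BMP4 second, at 40.4 ± 13.3 CPM per kb untreated, ahead of TNFRSF11B at 35.6 ± 14.8, and those 2 ranges overlapped. In IFNγ-treated WT clones ALPL, at 5.10 ± 1.57 CPM per kb, stood above BMP2, at 3.17 ± 1.12, again with overlapping ranges. SPARC did not overlap its next neighbour in any group.

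**Figure D1:**
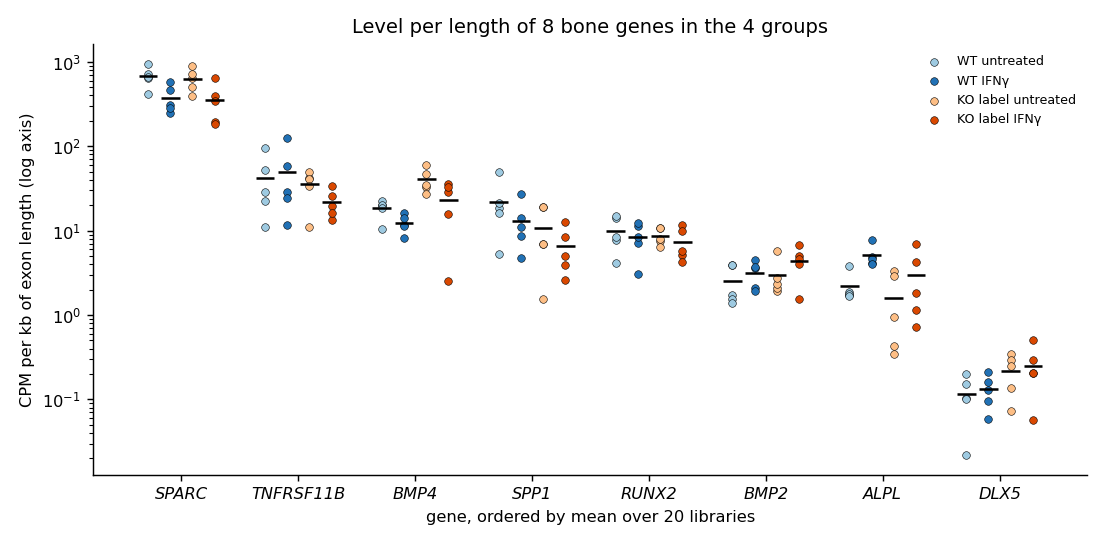
Level of 8 bone genes per kb of exon length (CPM per kb, log axis) in each library, with bars for the means of 5 clones; SP7 and TNFSF11, with mostly 0 counts, are not drawn. SPARC lies above every other gene in all 4 groups, and DLX5 lies below 1 CPM per kb in every library.

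SP7 and TNFSF11 were close to undetected. SP7 (chr12:53326575-53344793, minus strand) had 0 to 4 counts a library and 19 counts in all, and 8 libraries had none. TNFSF11 (chr13:42562736-42608013, plus strand) had 11 counts in all, with 16 libraries at 0 and 6 counts in 1 treated library labelled KO. With 3 counts as the limit that a count of 0 allows, a level of up to 0.0409 to 0.0608 CPM would escape detection, counting error alone considered. No fold is given for either gene, since both groups of every comparison lie at or near this limit. Its receptor RANK (TNFRSF11A) was likewise at most 0.066 CPM in any library.

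Of 8 markers of mature osteoblasts and osteocytes, 7 are described. COL1A1 (a chain of type I collagen) was at 3875 ± 1486 CPM in untreated WT clones. PHEX, a peptidase of mineralizing cells, was at 2.73 ± 1.22 CPM. The markers that define late stages were at or near 0: IBSP (bone sialoprotein) had no count in any WT library, BGLAP (osteocalcin) stayed at or under 0.114 CPM in every library, and DMP1 and MEPE had at most 0.0608 and 0.156 CPM. SOST (sclerostin), a marker of osteocytes, was at most 0.508 CPM, in an untreated WT library. COL1A2, which encodes the other chain of type I collagen, averaged 0.267 ± 0.285 CPM in untreated WT clones, or 0.0526 CPM per kb against 655 CPM per kb for COL1A1. The summed level of the 8 markers ran from 2326 to 5623 CPM in untreated WT, 1387 to 3522 in treated WT, 574 to 4846 in untreated and 308 to 3010 in treated clones labelled KO, almost all of it from COL1A1. Leukocyte markers summed to at most 2.41 CPM in any library, with CD3E at or under the limit of 3 counts in treated WT and in both groups labelled KO. Adipocyte markers summed to at most 53.9 CPM. Chondrocyte markers summed to 240 to 564 CPM, most of it SOX9 (212 to 539 CPM). In untreated WT clones MATN3 averaged 25.0 CPM and ACAN 7.25 CPM, and 6 of the 8 markers exceeded 3 counts in at least 1 library. COL9A1 stayed at or under 3 counts in every group. Osteoclast markers summed to 6.85 to 37.4 CPM in untreated and 6.97 to 69.4 CPM in treated WT libraries, and to 6.48 to 194 CPM untreated and 4.54 to 270.0 CPM treated in those labelled KO, where MMP9 alone reached 243 CPM. With the clone in the fit, where 7.24% of all genes were called, 2 of the 5 osteoclast markers tested in WT were called higher with IFNγ. These were OSCAR (3.08 to 7.83 CPM on average) and DCSTAMP (0.0651 to 0.524 CPM), and none was called without the clone. The medians of OSCAR were lower, at 0.912 CPM untreated and 1.89 CPM treated, with maxima of 10.8 and 29.7 CPM. Untreated DCSTAMP had only 0 to 10 counts a WT library. At an adjusted p under 0.05 with the clone, 3 of the 5 were higher (22.9% of all genes) and 1 was lower (24.1%). CTSK fell on average from 1.16 to 0.761 CPM in WT and from 1.32 to 0.649 CPM in clones labelled KO. The part of these markers in the values of the bone genes was not tested.

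IFNγ moved some of the bone genes within clones. With each clone compared with itself, ALPL rose 2.37-fold in the WT clones, and SPARC (1.84-fold), SPP1 (1.62-fold), BMP4 (1.5-fold) and RUNX2 (1.18-fold) fell, with BMP2 up by 1.32-fold. TNFRSF11B and DLX5 did not pass, at 1.10-fold and 1.16-fold. At the threshold, an adjusted p under 0.05, 22.9% of all genes tested were higher in this fit and 24.1% were lower. In the clones labelled KO, ALPL (2.0-fold higher) and SPARC (1.91-fold lower) passed at the same threshold, where 11.1% of all genes were higher and 9.95% lower. Without the pairing by clone none of the 8 tested genes was called in either response. Of all genes tested, 3% were called in the WT response and 1.96% in that of the clones labelled KO. A gene was called at an adjusted p under 0.01 with more than a 2-fold change. The study used these cut-offs between WT and KO, and a larger fold for its IFNγ responses.

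**Figure D2:**
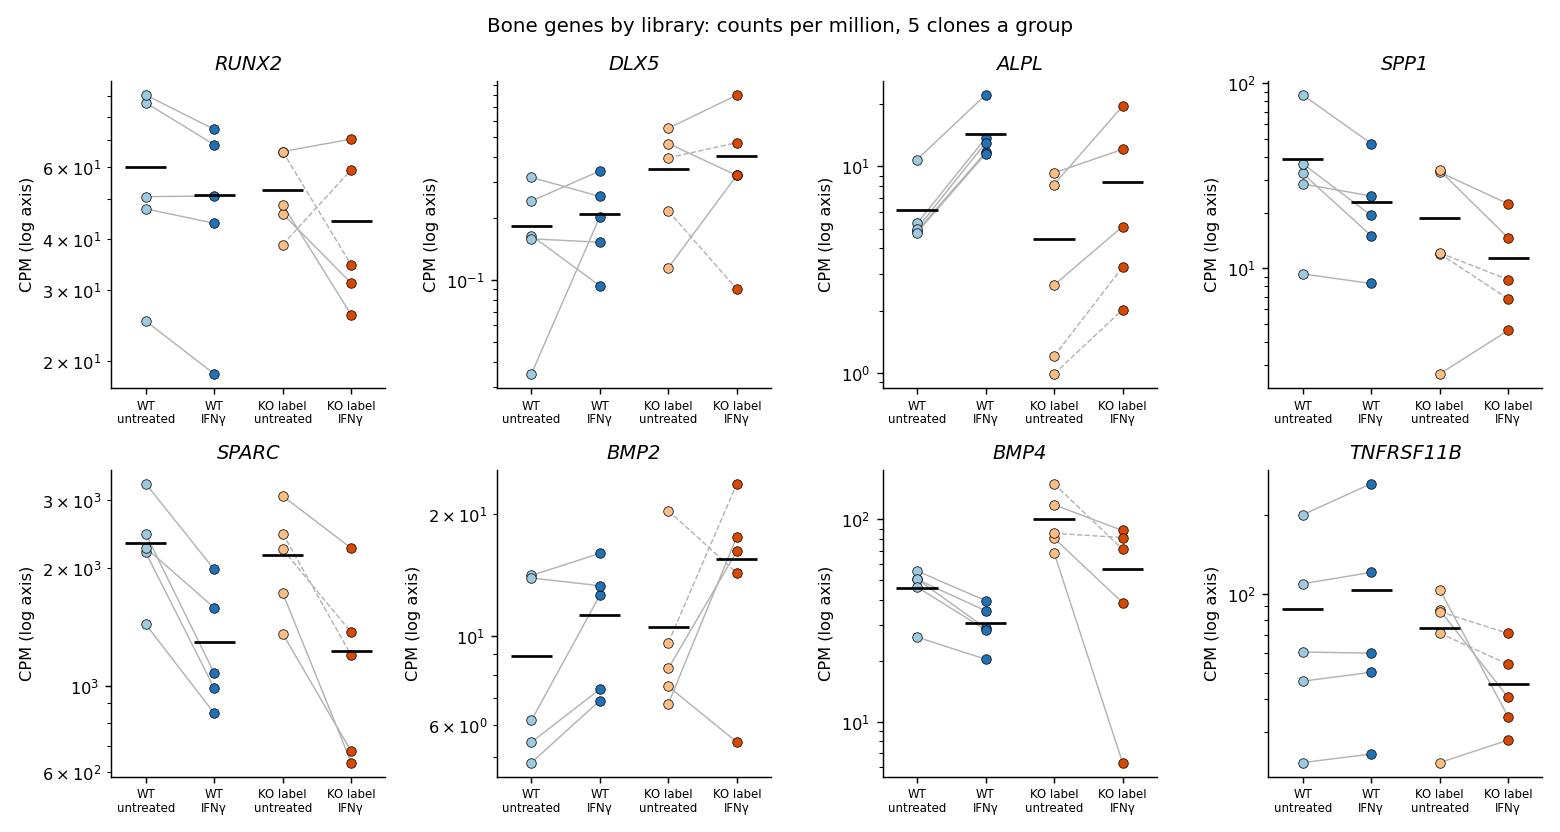
CPM (log axis, a scale of its own for each gene) of the 8 tested bone genes in each library; lines join the untreated and treated library of a clone, dashed for KO clones 4 and 5, and bars are means of 5. ALPL rises along all 10 lines and SPARC falls along all 10, and BMP4 in untreated clones labelled KO lies above every untreated WT clone.

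RUNX2, the master regulator of the lineage (chr6:45328330-45551082, plus strand), was present in every library. Its level in WT clones 1 to 5 was 47.4, 50.8, 25.1, 86.5 and 90.4 CPM untreated and 43.7, 51.0, 18.6, 68.2 and 74.4 CPM with IFNγ. In clones 1 to 5 labelled KO it was 46.1, 65.6, 48.5, 65.6 and 38.7 CPM untreated and 31.1, 70.4, 26.0, 34.5 and 59.2 CPM treated. WT clone 3 was lowest and clones 4 and 5 highest in both states, and all groups overlapped. The WT log2 fold change was -0.24 (SE 0.401, adjusted p = 0.782) without the clone in the fit and -0.24 (SE 0.0657, adjusted p = 0.0092) with it, lower in 4 of 5 clones. In the clones labelled KO the change within clones was -0.34 (SE 0.234, adjusted p = 0.338), and -0.48 (SE 0.198, adjusted p = 0.151) without KO clones 4 and 5. The exons counted for RUNX2 overlap those of SUPT3H on the opposite strand over 960 bases, and the strand setting of the counting is not given in the sources used here. Counts over the whole gene do not separate the transcripts of the distal start printed above from those of the proximal start. CBFB, which encodes the subunit that RUNX proteins bind DNA with, was at 116 ± 20.6 CPM in untreated and 131 ± 21.1 CPM in treated WT clones.

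DLX5, a homeobox factor of osteoblast precursors (chr7:97020396-97024831, minus strand), was scarce, at 2 to 50 counts a library. In WT, the clones held 0.165, 0.159, 0.243, 0.317 and 0.0348 CPM untreated and 0.0937, 0.153, 0.341, 0.256 and 0.204 CPM treated. In clones labelled KO, the levels were 0.551, 0.464, 0.115, 0.395 and 0.217 CPM untreated and 0.801, 0.324, 0.325, 0.469 and 0.0903 CPM treated. Groups overlapped in every comparison, the response had no common direction, and at this depth differences of the size seen (log2 0.90, SE 0.562, between labels untreated, adjusted p = 0.98) could not be told from the spread of the clones.

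ALPL, the alkaline phosphatase of mineralizing cells (chr1:21508984-21578410, plus strand), was higher with IFNγ in every clone. Levels in the WT clones were 5.29, 4.86, 4.99, 4.78 and 10.8 CPM untreated and 13.7, 11.7, 13.0, 11.5 and 22.2 CPM with IFNγ. These groups did not overlap, and 7.27% of the genes tested were likewise higher in treated WT clones with no overlap. The exact permutation test of the log2 levels gave p = 0.00794, the smallest that 5 against 5 allows. In edgeR's quasi-likelihood test without the clone the log2 fold change was 1.22 (SE 0.289, adjusted p = 0.0197), past the fold and short of the p cut-off. With the clone as a block it was 1.25 (SE 0.085, adjusted p = 5.87e-07), and the gene was called. It was also called without the block when WT clone 5 was left out (1.31, adjusted p = 0.000834), and over all alternatives its adjusted p ran from 5.87e-07 to 0.255, the latter with all 20 libraries in the fit. The rise within WT clones 1 to 5 was 1.36, 1.25, 1.36, 1.25 and 1.02 on the log2(CPM + 0.1) scale, so that the clones agreed closely although clone 5 started from the highest level. Those labelled KO held 2.66, 9.30, 8.17, 1.2 and 0.986 CPM untreated and 5.11, 12.1, 19.6, 3.25 and 2.02 CPM treated. Their groups overlapped because the starting levels were far apart, and the unblocked log2 fold change was 0.90 (SE 0.752, adjusted p = 0.525). Within clones it was 1.00 (SE 0.191, adjusted p = 0.0107), and 0.84 (SE 0.204, adjusted p = 0.0387) without KO clones 4 and 5.

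SPARC, which encodes the collagen-binding matrix protein osteonectin (chr5:151661096-151686915, minus strand), was lower with IFNγ in every clone. WT libraries 1 to 5 held 1437, 2452, 2198, 2259 and 3300 CPM untreated and 849, 1076, 985, 1584 and 1988 CPM treated. The ranges overlapped, since treated WT clones 4 and 5 stayed above untreated clone 1. The unblocked log2 fold change was -0.85 (SE 0.275, adjusted p = 0.0718), and within clones it was -0.88 (SE 0.10, adjusted p = 0.000235). Libraries labelled KO held 1358, 3067, 1728, 2238 and 2457 CPM untreated and 678, 2254, 634, 1370 and 1196 CPM treated. Their change was -0.82 (SE 0.345, adjusted p = 0.175) unblocked, -0.93 (SE 0.140, adjusted p = 0.00472) within clones and -0.99 (SE 0.193, adjusted p = 0.0285) without KO clones 4 and 5. All these changes lie short of 2-fold, so that SPARC met the p cut-off for a call within all 5 clones of each label and never the fold cut-off.

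SPP1, which encodes osteopontin, a phosphoprotein of bone matrix and of many tumours (chr4:87975714-87983411, plus strand), differed widely between clones. The WT clones held 32.6, 36.8, 86.6, 28.6 and 9.32 CPM untreated and 15.0, 19.3, 47.3, 24.6 and 8.27 CPM treated. Clone 3 was highest and clone 5 lowest in both states, and every WT clone was lower with IFNγ. The log2 fold change was -0.77 (SE 0.540, adjusted p = 0.424) unblocked and -0.69 (SE 0.161, adjusted p = 0.0115) within clones. The clones labelled KO held 33.1, 2.68, 33.8, 12 and 12.1 CPM untreated and 22.3, 4.61, 14.6, 6.82 and 8.69 CPM treated. KO clone 2, the lowest, went up while the other 4 went down, and the change within clones was -0.49 (SE 0.258, adjusted p = 0.217), and -0.42 (SE 0.388, adjusted p = 0.509) without KO clones 4 and 5.

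BMP4, a BMP ligand (chr14:53949736-53956891, minus strand), was lower with IFNγ in all WT clones and was the only one of the 8 whose untreated groups did not overlap between labels. In WT, the clones held 50.7, 55.6, 26.2, 50.5 and 46.3 CPM untreated and 29.1, 39.7, 20.4, 35.4 and 28.5 CPM treated. The log2 fold change was -0.60 (SE 0.220, adjusted p = 0.111) unblocked and -0.59 (SE 0.0689, adjusted p = 3.41e-05) within clones. In clones labelled KO, the levels were 118, 80.8, 68.5, 150.0 and 85.3 CPM untreated and 88.1, 38.8, 6.29, 71.1 and 81.3 CPM treated. Treated KO clone 3, the clone whose ZBTB48 mRNA was not below the WT range, lay far below the others. ZBTB48 protein was not measured here, and a link between these values was not tested. The response of the clones labelled KO was -0.81 (SE 0.526, adjusted p = 0.395) unblocked and -1.14 (SE 0.451, adjusted p = 0.116) within clones. Within clones 1 to 3 labelled KO it was -1.58 (SE 0.694, adjusted p = 0.215), and it was -0.63 (SE 0.290, adjusted p = 0.324) unblocked without KO clone 3. Untreated, the groups of the 2 labels did not overlap, with every clone labelled KO above every WT clone, and 0.431% of the genes tested stood higher in this way. The exact permutation test gave p = 0.00794, the smallest possible. Across all genes the difference of 1.13 on the log2 scale (SE 0.246) had an adjusted p of 0.598, and 1.24 (SE 0.243, adjusted p = 0.679) without KO clone 3, so it did not pass. DESeq2 gave an adjusted p of 0.0139, also short of the cut-off. With IFNγ the difference was 0.92 (SE 0.513, adjusted p = 0.996) with overlapping groups, and 1.21 (SE 0.252, adjusted p = 0.640) without KO clone 3. The exons of BMP4 overlap those of LOC124903317 on the opposite strand over 918 bases.

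BMP2, a BMP ligand that induces bone (chr20:6767686-6780246, plus strand), was near ALPL in level per length. Levels in the WT clones were 6.17, 14.1, 5.45, 13.9 and 4.85 CPM untreated and 12.6, 16.0, 7.37, 13.3 and 6.91 CPM treated. It was higher in 4 of 5 WT clones, with a log2 fold change of 0.32 (SE 0.360, adjusted p = 0.652) unblocked and 0.40 (SE 0.137, adjusted p = 0.034) within clones. Those labelled KO held 6.79, 7.49, 8.30, 9.62 and 20.4 CPM untreated and 17.6, 5.45, 16.2, 23.8 and 14.3 CPM treated. As labelled, clones 1, 3 and 4 were higher and clones 2 and 5 lower with IFNγ, while 4 of 5 were higher with the treated libraries of clones 4 and 5 exchanged. The change within clones was 0.54 (SE 0.328, adjusted p = 0.280), and 0.62 (SE 0.348, adjusted p = 0.271) without those 2 clones. All 4 groups overlapped.

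TNFRSF11B, which encodes osteoprotegerin (chr8:118923557-118951885, minus strand), followed the clone more than the treatment. WT libraries 1 to 5 held 109.6, 60.3, 22.9, 46.7 and 200.3 CPM untreated and 121, 59.7, 24.7, 50.5 and 263 CPM treated. Each WT clone kept its place, and the log2 fold change was 0.24 (SE 0.670, adjusted p = 0.880) unblocked and 0.14 (SE 0.0616, adjusted p = 0.0874) within clones. Libraries labelled KO held 87.1, 22.9, 104, 85.9 and 71.1 CPM untreated and 40.5, 27.9, 34.2, 70.9 and 54.1 CPM treated. Here 4 of 5 clones were lower with IFNγ, and the change was -0.70 (SE 0.369, adjusted p = 0.282) unblocked and -0.62 (SE 0.256, adjusted p = 0.125) within clones, and within clones without KO clones 4 and 5 it was -0.85 (SE 0.396, adjusted p = 0.218). The difference of the responses, KO minus WT, was -0.92 (SE 0.824) unblocked and -0.74 (SE 0.297) within clones on the log2 scale, with an adjusted p of 1 over all genes in both.

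**Figure D3:**
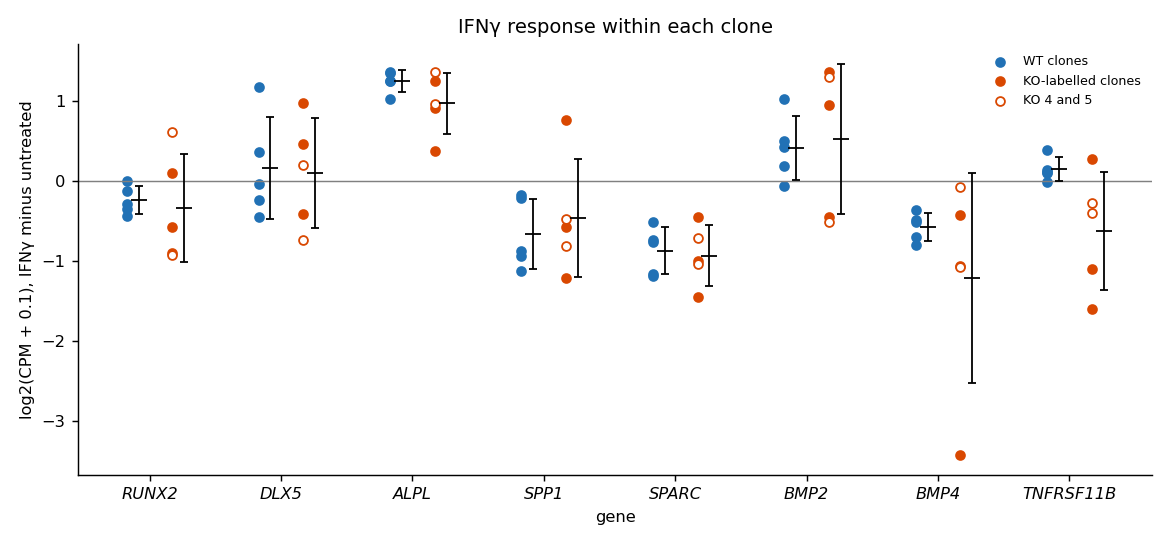
Difference in log2(CPM + 0.1) between the IFNγ-treated and untreated library of each clone, with mean and SD of 5 clones beside the points; open circles are KO clones 4 and 5, whose libraries did not deviate together. The WT responses of ALPL lie between 1.02 and 1.36, all above 0, and the responses of SPARC and BMP4 lie below 0 in all 10 clones.

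The counts of moved genes among the 8 are set here beside those of all genes. In the WT response 0 of 8 tested genes were called without the clone, where 585 of 19522 genes (3%) were called, and 1 of 8 (ALPL) with it, where 7.24% were called. At an adjusted p under 0.05 within WT clones, 2 of the 8 were higher (22.9% of all genes) and 4 were lower (24.1% of all genes). In the clones labelled KO, 0 of 8 were called without the clone (1.96% of all genes) and 0 of 8 with it (3.72% as labelled, 6.23% with KO clones 4 and 5 exchanged and 1.56% without them). At an adjusted p under 0.05 within those clones 1 was higher (11.1% of all genes) and 1 was lower (9.95%). Only ALPL was higher in all 5 WT clones (24.6% of all genes) and in all 5 labelled KO (16.5%), and SPP1, SPARC and BMP4 were lower in all 5 WT clones (25%), of which SPARC and BMP4 were also lower in all 5 labelled KO (17.5%). For a gene that moves the same way in 5 clones, the exact sign-flip test cannot give a p below 0.0625. The median log2 fold change of the 8 genes was -0.03 in WT clones and -0.48 in clones labelled KO, and that of all genes tested was -0.03 in both. In the fit of the difference between the responses, KO minus WT, the median was 0.02 for the 8 genes and 0.016 for all genes tested.

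Between labels none of the 8 genes was called. Untreated, 0.0154% of all genes were called, and with IFNγ 0.0155%, 3 genes each time. Besides BMP4, the largest differences were in SPP1, lower in clones labelled KO by 1.04 log2 units (log2 fold change -1.04, SE 0.650) untreated and with a log2 fold change of -1.0 (SE 0.489) treated, and in TNFRSF11B with IFNγ (log2 fold change -1.18, SE 0.547), all with adjusted p at or above 0.98 and overlapping groups. The test of the difference between the IFNγ responses called no gene at all (0% of 21052, edgeR), with 86 genes at an unadjusted p under 0.05 and none of the 8 among them. Its estimate was -0.30 (SE 0.848) for ALPL, 0.05 (SE 0.463) for SPARC and -0.20 (SE 0.608) for BMP4 on the log2 scale, so that differences of a size comparable to the responses themselves could not be seen unblocked. With the clone as a block the difference was -0.24 (SE 0.199) for ALPL and -0.03 (SE 0.181) for SPARC. For BMP4 it was -0.53 (SE 0.532) with the block and -0.97 (SE 0.641) without KO clones 4 and 5, with an adjusted p of 1 in both.

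The spread of these genes over the libraries was divided between clone, treatment and label. Of the sum of squares of log2(CPM + 0.1) over 20 libraries, the clone within its label took 83.7% for TNFRSF11B, 80.0% for RUNX2, 67.9% for SPP1, 58.9% for BMP2, 57.9% for ALPL, 57.2% for DLX5, 49.2% for SPARC and 43.7% for BMP4. IFNγ took 44.6% for SPARC, 21.4% for ALPL and 20% for BMP4, against 1.0% to 12.3% for the other 5 genes. The label took 16.1% to 21.6% for DLX5, SPP1, ALPL and BMP4 and 1.0% to 5.9% for the rest. The clone within its label has 8 of the 19 degrees of freedom, so that spread falling evenly over them would give it 42.1%, and IFNγ and label, with 1 each, 5.26%. The clone shares of BMP4 and SPARC lie near that value. All shares above use the pairs as labelled, including the doubtful pairs of KO clones 4 and 5. With the treated libraries of those clones exchanged, the clone share was 45.6% for DLX5, 67.5% for BMP2 and 88.1% for RUNX2. It was 44.5% for BMP4 and 49.5% for SPARC. These shares are descriptions, and the share of the label includes what separates any 2 sets of 5 clones.

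**Figure D4:**
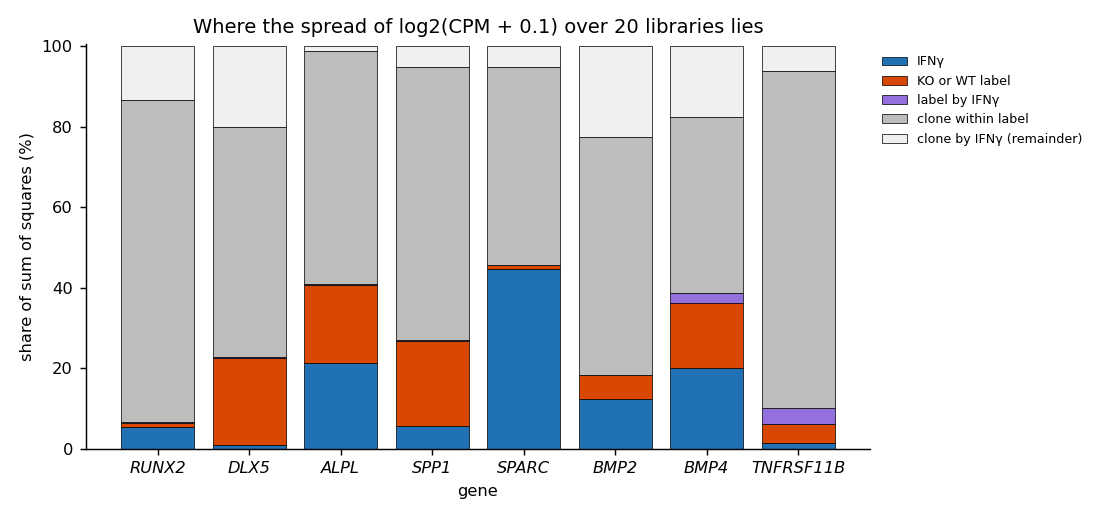
Share (%) of the sum of squares of log2(CPM + 0.1) over 20 libraries due to IFNγ, label, their combination, clone within label and the remainder (clone by IFNγ), for 8 bone genes. Pairs are as labelled. The grey clone share is the largest part for all 8 genes, at 83.7% for TNFRSF11B and 43.7% for BMP4, where its 8 of 19 degrees of freedom alone would give 42.1%.

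4 of these genes varied enough to look for genes of like pattern, by the smallest root mean square difference of mean-centred log2 levels over 20 libraries among 15115 other genes. ALPL (root mean square 1.2 about its own mean) was followed by LAT2 (difference 0.739) and GLIPR1 (0.748), SPP1 (1.18) by GCNT2 (0.556) and PIFO (0.593), and TNFRSF11B (0.961) by BMPR1B (0.514), a BMP receptor, and TBC1D23 (0.601). BMP4 (0.995) was followed by LOC124903317 (0.431), the gene on its opposite strand, whose mean was 1.84 CPM, and by SMAD6 (0.596), an inhibitor of BMP signalling. The 20 libraries share clones, so these are descriptions of likeness with no test.

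The wider bone gene lists held 93 other genes. In the WT response 75 of them were tested, 5 were called higher and 1 lower (3% of all genes were called), and in the clones labelled KO 76 were tested and 2 were called, both higher (1.96% of all genes). The list of signals that act on osteoclasts held 3 of the 6 called in WT and both called in clones labelled KO, and neither of the latter was called within clones without KO clones 4 and 5 (CSF1 at 1.84, adjusted p = 0.0416, and IL6 at 1.85, adjusted p = 0.0154). With the clone as a block, LGR4 of this list was called lower in WT (17.5 to 7.57 CPM on average). CCL2 was called lower in clones labelled KO (36.4 to 15.0 CPM on average), also without KO clones 4 and 5. CSF1, the growth factor that osteoclast precursors need, rose from 28.2 ± 11.3 to 113 ± 33.0 CPM in WT (log2 fold change 1.98, SE 0.287, adjusted p = 0.00122) and from 29.5 ± 10.5 CPM to between 84.0 and 139 CPM in clones labelled KO (1.77, SE 0.291, adjusted p = 0.0045). TNFSF10 (TRAIL), another ligand that osteoprotegerin binds, rose from 0.0458 ± 0.0724 to 1.53 ± 0.779 CPM in WT (log2 fold change 4.93, SE 0.831, adjusted p = 0.00304). IL11, a cytokine of bone remodelling, rose by 1.54 log2 units in WT (SE 0.239, adjusted p = 0.00187), and IL6 by 2.02 in clones labelled KO (SE 0.380, adjusted p = 0.00917). The averages rose in the other label too. In clones labelled KO, TNFSF10 went from 0.0617 to 1.29 ± 1.19 CPM and IL11 from 9.83 to 50.6 ± 47.8 CPM. In WT, IL6 went from 0.587 to 2.31 ± 1.66 CPM. With the clone as a block IL6 was also called in WT, and IL11 in clones labelled KO but not without KO clones 4 and 5.

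In the BMP list, 26 of 28 genes were tested in each response. In WT the inhibitor FST (follistatin) rose from 76.3 ± 26.2 to 227 ± 61.2 CPM (log2 fold change 1.56, SE 0.258, adjusted p = 0.00275). ID1, a gene switched on by BMP signals, fell from 204 ± 38.3 to 91.6 ± 10.5 CPM (-1.17, SE 0.145, adjusted p = 0.000444). Without the clone in the fit no gene of this list was called in the clones labelled KO, where FST changed by 1.21 log2 units (SE 0.239, adjusted p = 0.0117) and ID1 by -0.83 (SE 0.422, adjusted p = 0.263). Within those clones FST was called higher (1.17, SE 0.141, adjusted p = 0.00212), and without KO clones 4 and 5 ID1 was called lower (-1.30, SE 0.107, adjusted p = 0.00108) and FST was not called (0.94, SE 0.107, adjusted p = 0.0045). The median of the list was -0.19 in WT and -0.17 in clones labelled KO.

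Among 12 tested lineage transcription factors, ATF4, a factor for amino acid supply and late osteoblast genes, was called in WT (log2 fold change 1.14, SE 0.197, adjusted p = 0.00368) and the median was 0.16. None of 14 tested matrix and mineralization genes was called in WT and none of 15 in clones labelled KO, and their medians were -0.44 and -0.47. With the clone as a block, LUM (lumican) and POSTN (periostin), both matrix genes, were called lower in WT, at -1.17 (SE 0.103, adjusted p = 2.19e-05) and -2.31 (SE 0.315, adjusted p = 9.79e-05). POSTN was scarce in WT, at 1.57 ± 1.78 CPM untreated and 0.309 ± 0.31 CPM treated, with as few as 0 counts in a treated library. LUM ranged from 12.3 to 186 CPM over the untreated WT clones. In all, 12 of the 75 list genes were called in WT with the block, 7 higher and 5 lower (7.24% of all genes were called). LUM was also called lower within clones labelled KO (-1.46, SE 0.26, adjusted p = 0.00913), and without KO clones 4 and 5 (-1.40, SE 0.182, adjusted p = 0.00751). Of the 76 list genes 7 were called within those clones, 5 higher and 2 lower (3.72% of all genes), 9 with KO clones 4 and 5 exchanged (6.23%), and 3 of 75, all lower, without them (1.56%). No hormone, Wnt or receptor gene of the remaining 2 lists was called without the block, and WNT5A, a Wnt ligand, was called lower with it (-1.22, SE 0.065, adjusted p = 8.55e-08). No list gene was called between labels or in the difference of responses.

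**Figure D5:**
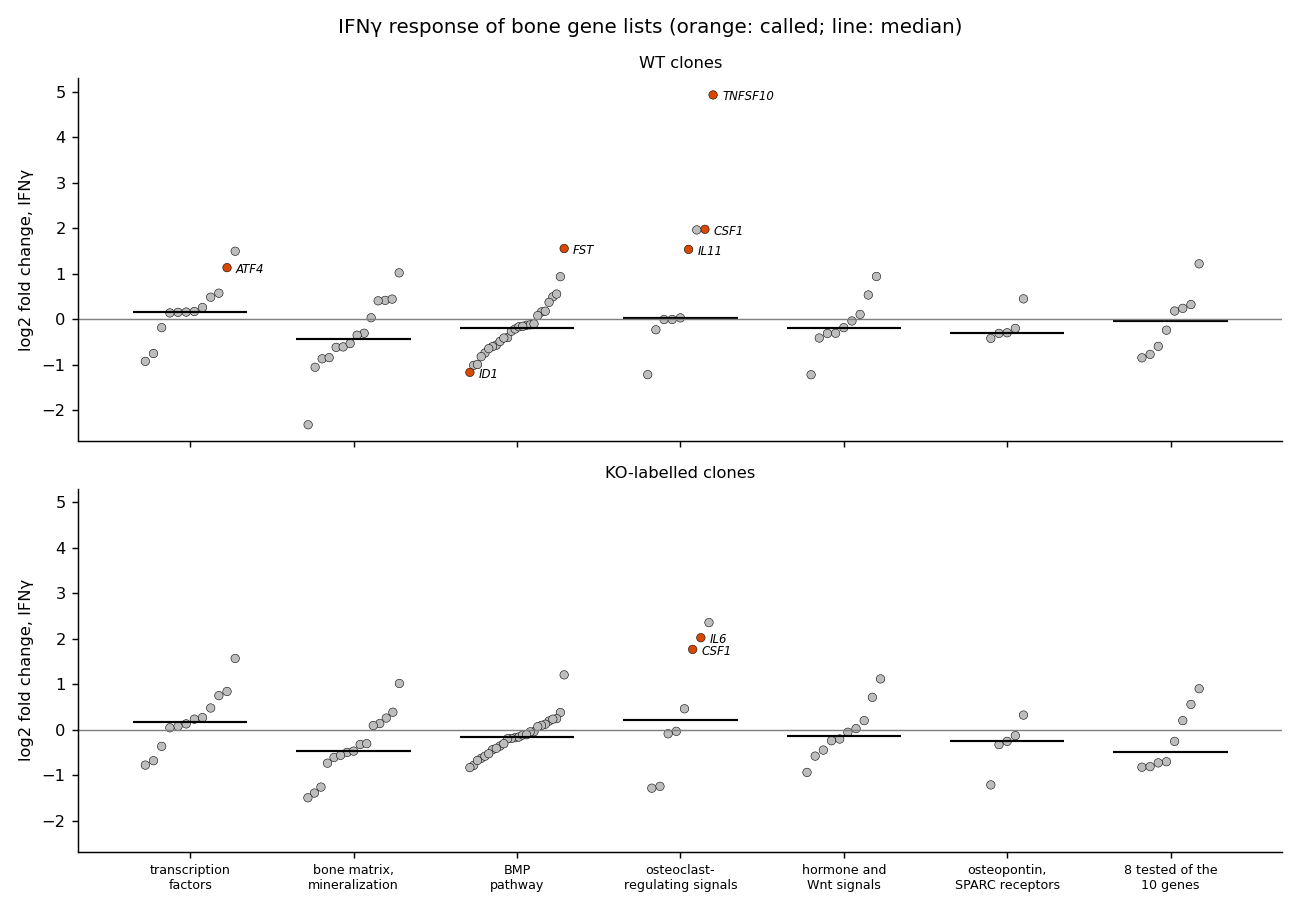
log2 fold change with IFNγ of the tested genes of 6 bone gene lists and of the 8 tested members, in WT clones (top) and clones labelled KO (bottom), from the fits without the clone; points of a list are ordered by value, bars are medians and orange points are called genes. TNFSF10 at 4.93 and CSF1 at 1.98 stand at the top in WT, and the 8 members have no orange point.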

How the data were processed

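Poly(A) RNA-seq libraries of 5 WT and 5 ZBTB48 KO U2OS clones, untreated or IFNγ-treated, were analysed. The authors deposited 1 table of whole-number counts per gene, and the submitters' processing notes name STAR 2.7.9a, featureCounts 2.4.0, DESeq2 1.40.1, deepTools 3.5.1 and the GRCh38 build. The kit is labelled stranded, and the strand setting of the counting is not given in the sources used here. The deposited exon length column (a per-gene value, in bases) gave CPM per kb. No column was left unmapped.

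From the counts, edgeR 4.0.16 in R 4.3.3 (TMM scaling, filterByExpr, robust quasi-likelihood test, Benjamini-Hochberg adjustment over all genes tested) compared groups of 5 clones. Genes were called at an adjusted p under 0.01 and over 2-fold, the cut-offs of the study between WT and KO. All adjusted p-values in the text are from this test unless DESeq2 1.42.0 is named. The SE is the log2 fold change divided by the root of the F statistic. Same-numbered libraries carry the same clone label, and their deviations from the group means correlated at 0.79 to 0.89 in WT and at 0.00 to 0.85 in clones labelled KO, so the fits with the clone as a block (the pairing) are printed beside those without. WT and KO numbers name different clones. Exact permutation tests, two-sided, used log2(CPM + 0.1). The scripts were tested on simulated counts.

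Genes named are all 10 members, list genes called in a comparison, up to 8 a list, and the 2 genes most like each member with a mean of at least 1 CPM and an SD of at least 0.75. Other list, marker and blocked genes, and the check of ZBTB48, were named after their values were seen. The members and lists were chosen with earlier results of these data known. The alternatives were other scalings, no filter, DESeq2, another cut-off, all 20 libraries together, each clone left out, pairing and pseudocounts. Some marker values are not reported here.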

Additional observations from a re-analysis of the deposited data

Results flagged for a closer look

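In 28 groups of 5 clones (7 genes with over 3 counts in every library, 4 groups each), 4 had a clone set apart from the rest by more than the 95% critical value of Dixon's test, where chance gives about 1.4. ALPL was highest in WT clone 5 both untreated (10.8 CPM, next 5.29) and with IFNγ (22.2 CPM, next 13.7). BMP4 was lowest in untreated WT clone 3, at 26.2 CPM against 46.3 CPM for the next. TNFRSF11B was lowest in untreated KO clone 2, at 22.9 CPM against 71.1 CPM for the next. Both ALPL flags come from 1 clone.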

How the results depend on the processing

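Called genes among the 8 tested bone genes stayed at 0 in the response of the clones labelled KO, between labels and in the difference of responses under every alternative run, including the fits with the clone as a block. In the WT response the count was 0, and became 1 (ALPL) with DESeq2 with or without shrinkage, at an adjusted p under 0.05 with no fold cut-off, and in the fit that pairs libraries by clone (the replicate block), and it was 0 to 1 with a clone left out. ALPL's log2 fold change was 1.19 to 1.31 with a clone left out, and it was called only without WT clone 5. Over all genes, calls in the WT response were 976 with DESeq2 unshrunk, 2202 at an adjusted p under 0.05, 1414 with the clone block and 318 to 457 with a clone left out (355 without clone 1 and 318 without clone 2). In the response of the clones labelled KO they were 825 with DESeq2 unshrunk, 756 shrunk, 1528 at an adjusted p under 0.05, 642 with all 20 libraries, 721 with the clone block, 1208 with the treated libraries of KO clones 4 and 5 exchanged, and 131 to 490 with a clone left out, with 167, 160, 131 and 142 without clones 1, 3, 4 and 5. Between labels untreated they were 5 with no filter, 13 and 7 with DESeq2 unshrunk and shrunk, 6 at an adjusted p under 0.05, 5 with all libraries, and 1 with the replicate number as a block, which names different clones. With IFNγ they were 5 with no filter, 16 and 12 with DESeq2, 6 with all libraries and 3 to 5 with a clone left out (5 without KO clone 1). The fit without KO clones 4 and 5 was added after seeing the data. Exchanging those libraries changed no call among the 8. DESeq2 with shrinkage was not run for the difference of responses. By CPM without length, RUNX2 stood above SPP1 in all 4 groups.

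Signs that turned belong to values near 0, none of which was called. In the difference of responses (KO minus WT, log2), RUNX2 was -0.012 with DESeq2 size factors, -0.028 with no filter, -0.012 with DESeq2, -0.080 with the clone block, -0.073 with KO clones 4 and 5 exchanged and -0.22 without them, against 0.004. DLX5 was -0.082 and -0.062 with the block, as labelled and exchanged. SPARC was -0.031 with each and -0.098 without KO clones 4 and 5. With a clone left out that difference ran from -0.24 to 0.16 for RUNX2, -0.19 to 0.30 for DLX5, -0.03 to 0.28 for SPP1 and -0.13 to 0.14 for SPARC. Between labels untreated it ran from -0.39 to 0.0038 for RUNX2, -0.26 to 0.051 for SPARC, -0.15 to 0.47 for BMP2 and -0.50 to 0.30 for TNFRSF11B, and with IFNγ from -0.41 to 0.15 for SPARC. The WT response of DLX5 ran from -0.072 to 0.33. The cause was not tested. Depth limits SP7, TNFSF11 and DLX5.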

Other observations

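COL1A1 and COL1A2, the genes of the 2 chains of type I collagen, differed in every group. Per kb of exon, COL1A1 was at 655 ± 251 CPM in untreated WT, 429 ± 156 in treated WT, 295 ± 299 in untreated and 179 ± 189 in treated clones labelled KO (mean ± SD, n = 5). COL1A2 was at 0.0526 ± 0.0561, 0.0593 ± 0.0785, 0.0648 ± 0.0727 and 0.0509 ± 0.0644 CPM per kb in the same order. The clones labelled KO ranged from 549 to 4822 CPM of COL1A1 untreated.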
